A study of Mus musculus with 10 samples.

Results

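The cytosolic ribosomal protein genes encode the protein part of the ribosome that translates nuclear-encoded messages. They were chosen by gene symbol alone, as every row named Rpl or Rps with a number, the stalk genes Rplp0, Rplp1 and Rplp2, and Rpsa, leaving out the S6 kinases and symbols marked as pseudogenes. The rule found 86 of 30431 rows in each of the authors' deposited tables. Of these, 46 encode subunits of the large (60S) ribosomal subunit, 31 encode subunits of the small (40S) one, and 9 are paralogs or similarly named genes. The rule uses symbols and no expression value, but it was set with earlier results of these data known.

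RNA was sequenced from whole mouse kidneys at postnatal day 21. One group of 3 mice (DM) carried Pkhd1Cre, Pkd2 F/F and miR-21null, another 3 mice (SM) carried Pkhd1Cre and Pkd2 F/F, and 4 mice were wild-type (WT). The driver Pkhd1Cre acts mainly in the collecting duct, so the floxed Pkd2 gene, which encodes the cation channel polycystin-2, is removed in part of the tubule cells and stays intact in the other cells of the kidney. The WT mice are labelled with neither the driver nor the floxed alleles, and no group with miR-21null alone was analysed here. The comparisons ask how kidney RNA differs with loss of Pkd2, and with the additional loss of miR-21.

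Ribosome assembly begins in the nucleolus, where RNA polymerase I makes the large ribosomal RNA precursor and most ribosomal proteins join it. The proteins are needed in matched amounts, and surplus copies are degraded. Their messages begin with a C followed by an unbroken run of pyrimidines, the terminal oligopyrimidine (TOP) motif, through which growth signals relayed by mTOR control their translation. A change in ribosome production can therefore arise with no change in the messages measured here. Ribosomal protein genes are among the most highly expressed genes of most tissues, and the mouse genome holds many processed pseudogene copies of them.

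The start sites of 6 members with such a motif are shown because it is more frequent in the family than among all genes of the reference, though most core genes lacked it there. RefSeq start-site windows on GRCm38.p6 could be matched to 57 of the 77 core subunit genes. A gene was counted if any of its windows had a C at the annotated start followed by at least 4 further C or T. This held for 13 of these 57 genes (22.8%), for 813 of all 27025 genes with a window (3.01%), and for 0 of 67 mitochondrial ribosomal protein genes. Each sequence below is the 20 bases before the annotated start and the first 10 bases of the transcript, on the gene's strand, and the capitals mark the unbroken C and T run from the start within those bases. The genes are the 3 large-subunit and the 3 small-subunit members with the highest levels among those that have it. They lie at chr14:18270977-18271006 on the minus strand (Rpl15), chr9:120571497-120571526 on the plus strand (Rpl14), chr7:4792945-4792974 on the plus strand (Rpl28), chr4:86857358-86857387 on the minus strand (Rps6), chr17:33955656-33955685 on the minus strand (Rps18) and chr17:27635235-27635264 on the minus strand (Rps10).
Rpl15: ggattgtgggagaaagccttCTTCCTTTCC
Rpl14: cggcagggcgggccctctctCTTCTCgctg
Rpl28: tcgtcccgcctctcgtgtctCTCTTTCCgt
Rps6: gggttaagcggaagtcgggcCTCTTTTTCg
Rps18: acttatacgtcacttccgctCTCTCTTCCa
Rps10: acgctgcgccgcgcacgcccCTTCCTTTCC

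In the wider window, 250 bases before to 50 after the annotated start and on both strands, the word CTTTCC was found in 50.9% of the 57 core genes and in 29.3% of all genes. CTTCCG was found in 70.2% of the core genes, in 55.2% of the mitochondrial ribosomal protein genes and in 18.8% of all genes. GGAAG, whose reverse complement is the first 5 letters of CTTCCG, was found in 91.2% of the core genes and in 73.9% of all genes. These are matches of letters in the reference, and no binding or start-site mapping was measured in these kidneys.

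The ribosomal protein messages were abundant in all 3 groups. Levels per group, in CPM (counts scaled to library size), were computed for every gene from the authors' average and fold changes, since no value per library was analysed here. The 86 members summed to 32100 CPM in DM, 30500 CPM in SM and 29900 CPM in WT kidneys. These computed levels do not add up to the same total in each group. All rows summed to 937000 CPM in DM, 946000 in SM and 1100000 in WT kidneys. As a share of those sums, the members made up 3.43% in DM, 3.22% in SM and 2.72% in WT kidneys, a difference that was not tested. Of the 77 core subunit rows, 75 averaged 7 log2 CPM or more, a level reached by 1544 of all 30431 rows. Divided by annotated transcript length, those 75 core subunits ranged from 35.9 to 2030 CPM per kb, with a median of 449. The large-subunit median was 435 and the small-subunit median 479 CPM per kb, against 29.2 CPM per kb for the separate set of 76 mitochondrial ribosomal protein genes. Rplp1, a stalk protein, had the highest level per kb, and Rps15a, whose annotated transcript is unusually long for the family at 5130 bases, had the lowest. The core genes lie on 19 chromosomes, with 14 of them on chromosome 7.

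None of the 86 members differed between SM and WT kidneys in the authors' deposited table, where the test was the likelihood ratio test of edgeR and the threshold an adjusted p below 0.05 (Benjamini-Hochberg over all rows), and none did at an unadjusted p below 0.05. There, 14.0% of all rows passed the adjusted threshold, 7.87% higher and 6.09% lower in SM kidneys, and among rows of 7 log2 CPM or more the share was 31.0%. The members' median log2 fold change was 0.01, with 44 above 0 and 41 below, and the core subunits ran from -0.60 to 0.37. Centred on rows of 7 log2 CPM or more, whose own median was -0.15, the members' median was 0.15 and 18 members changed sign. The error of each fold change was taken as the standard error (SE) implied by the likelihood ratio. Its median was 0.28 on the log2 scale for the 81 members of at least 1 CPM, and 0.23 for rows of 7 log2 CPM or more. The members' errors were thus the larger ones.

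The same held for DM against WT kidneys. Again 0 of the 86 members passed the adjusted threshold in the authors' deposited table, and 0 passed an unadjusted p below 0.05 in edgeR's test, where 13.5% of all rows passed the adjusted threshold, 7.55% higher and 5.92% lower. Of rows of 7 log2 CPM or more, 27.7% did. The median log2 fold change of the members was 0.11, with 61 above 0 and 24 below. Centred on rows of 7 log2 CPM or more (median -0.17), it was 0.28, and 18 members changed sign. For DM against SM kidneys, 0 of 86 members passed either threshold in the authors' deposited table. There only 0.0789% of all rows passed the adjusted one, 0.0559% higher and 0.023% lower in DM kidneys, and 0.0% of rows of 7 log2 CPM or more, so this comparison found few genes of any kind. The members' median was 0.12, with 66 above 0 and 19 below, and the median over rows of 7 log2 CPM or more was -0.02. The comparisons against WT share the 4 WT libraries, and SM and DM libraries each enter 2 of the 3 comparisons, so the signs are not independent between them.

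**Figure D1:**
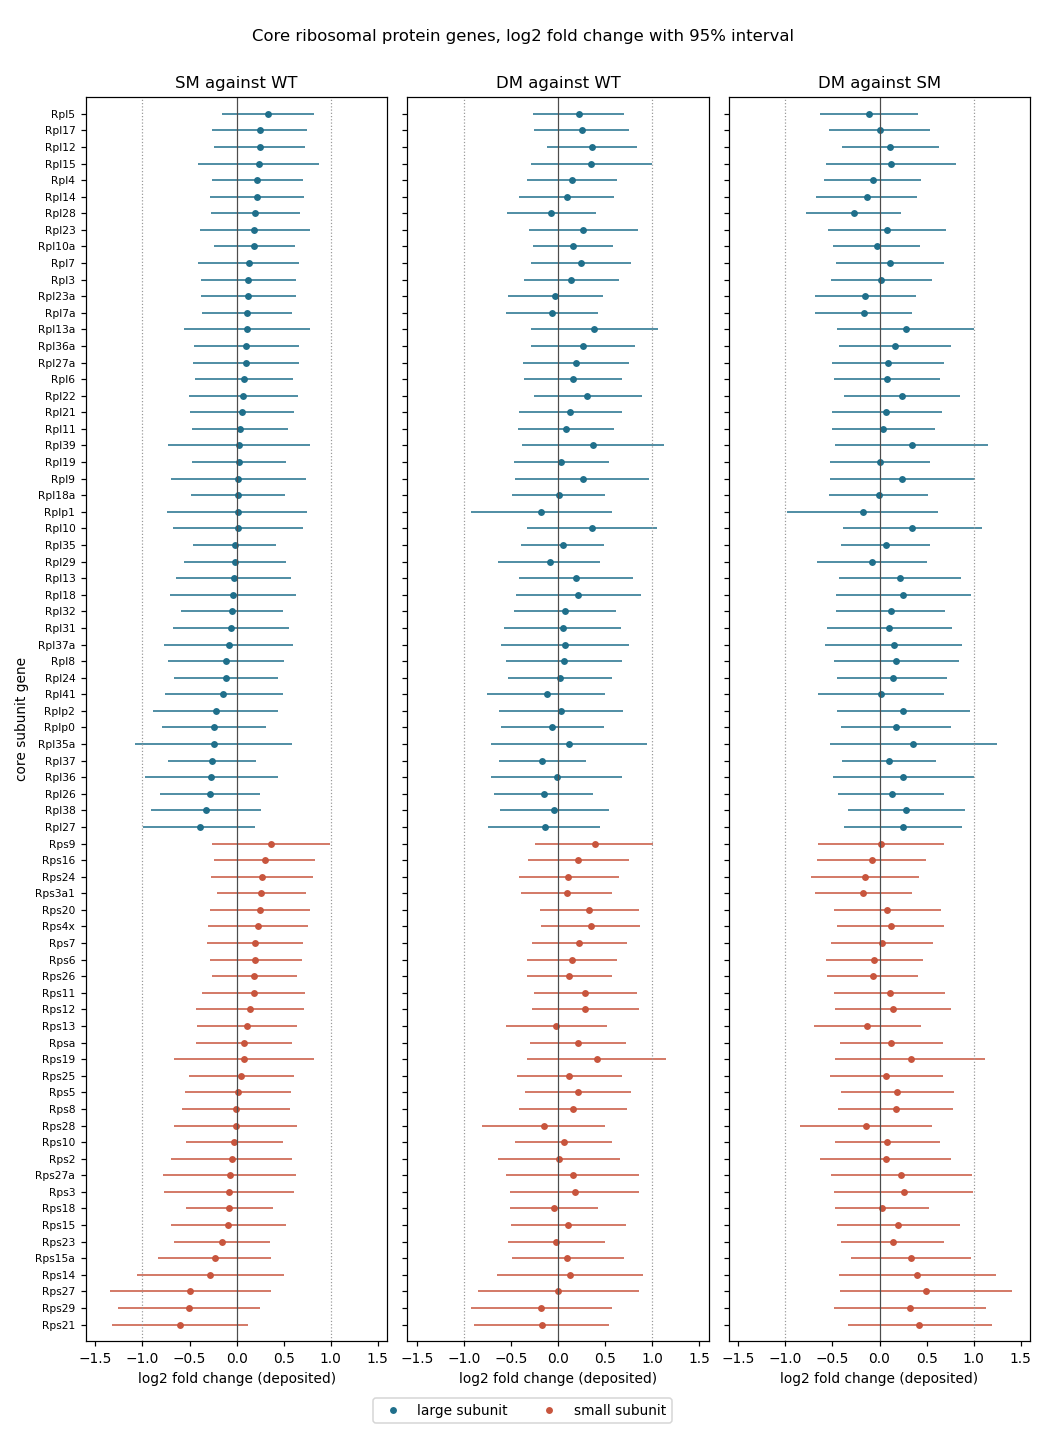
Deposited log2 fold change (x axis) of 74 of the 75 core subunit genes of at least 1 CPM, in the 3 comparisons, with the 95% interval computed from the implied SE as a line through each point. Genes are grouped into large (blue) and small (red) subunit and ordered by SM against WT. Every interval includes 0, and dotted lines mark a 2-fold difference in either direction.

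A change of 2-fold or more lay outside the 95% interval of most subunits. For SM against WT this held for 70 of the 75 core subunits of at least 1 CPM, and the intervals of Rpl35a, Rps14, Rps21, Rps27 and Rps29 reached a 2-fold difference. For DM against WT it held for 70 of 75, the others being Rpl10, Rpl13a, Rpl39, Rps19 and Rps9. For DM against SM it held for 66 of 75. Smaller differences could not be bounded as well: an interval within 0.5 on either side of 0 on the log2 scale was found for 1 of the 86 members in SM against WT, 2 in DM against WT and 1 in DM against SM. In whole-kidney RNA, fewer cells of a type and less RNA per cell cannot be told apart, and the p-values reflect the spread between these 10 animals' libraries.

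The P-stalk proteins, which recruit elongation factors to the large subunit, include the pair of most abundant members by average log2 CPM. Rplp1 (chromosome 9, 61913284 to 61914542, GRCm38) stood at 926 CPM in DM, 1050 in SM and 1050 in WT kidneys. Its log2 fold change against WT in the authors' deposited tables was -0.18 (SE 0.38) in DM and 0.01 (SE 0.38) in SM. Rplp0, on which the other stalk proteins assemble, stood at 925 CPM in DM, 817 in SM and 966 in WT kidneys, with log2 fold changes against WT of -0.06 (SE 0.28) in DM and -0.24 (SE 0.28) in SM, as the authors' deposited tables give them. Rplp2 had 284, 239 and 279 CPM in DM, SM and WT kidneys. All 3 stalk genes thus differed between groups by less than their SE.

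Rpl5 and Rpl11 travel with 5S ribosomal RNA as a particle that, when ribosome assembly stalls, binds MDM2 and stabilizes p53. Rpl5 was at 699 CPM in DM, 757 in SM and 602 in WT kidneys, a log2 fold change for SM against WT of 0.33 (SE 0.25, adjusted p = 0.494, per the authors' deposited table). Rpl11 was at 361 CPM in DM and 352 CPM in SM kidneys, and its log2 fold changes against WT were 0.08 (SE 0.26) in DM and 0.04 (SE 0.26) in SM. Neither gene passed the test in any comparison.

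Among large-subunit genes, Rpl12, a protein at the base of the stalk, had the smallest adjusted p of any member for DM against WT. It stood at 383 CPM in DM, 354 in SM and 299 in WT kidneys, a log2 fold change of 0.36 for DM against WT with a 95% interval from -0.12 to 0.84 (adjusted p = 0.428, per the authors' deposited table). Rpl13a, which in human monocytes leaves the ribosome during the interferon response to silence other messages, had 470, 388 and 360 CPM in DM, SM and WT kidneys and a log2 fold change of 0.38 (SE 0.34) for DM against WT. Rpl10, which completes the late-maturing 60S particle, had 674, 528 and 525 CPM in DM, SM and WT kidneys. Its value for DM against SM in the authors' deposited table was 0.35 (SE 0.38) on the log2 scale. Rpl28 lay lowest of all members for DM against SM, at 314 CPM in DM, 379 in SM and 330 in WT kidneys, and its 95% interval for that comparison ran from -0.78 to 0.23. Rpl15 and Rpl27 had values of 474 and 238 CPM in DM, 437 and 200 in SM, and 371 and 263 in WT kidneys. Each of these intervals included 0.

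Among small-subunit genes, the lowest values for SM against WT belonged to 3 genes for small proteins of the subunit. Rps21 (chromosome 2, 180257377 to 180258445) was at 194 CPM in DM, 144 in SM and 218 in WT kidneys, and its deposited log2 fold change for SM against WT was -0.60 with a 95% interval from -1.32 to 0.12. Its adjusted p of 0.351, from the authors' deposited table, was the smallest of any member in edgeR's test. Rps29 was at 418, 333 and 473 CPM in DM, SM and WT kidneys, a log2 fold change for SM against WT of -0.51 (SE 0.39). Rps27, a zinc finger protein with a close paralog, was at 191 CPM in DM, 136 in SM and 191 in WT kidneys, at -0.49 (SE 0.44) for SM against WT. The same 3 genes carried DM against SM values of 0.42 (Rps21), 0.32 (Rps29) and 0.49 (Rps27) in the authors' deposited table, each near its SE of 0.39, 0.41 and 0.47. Because both comparisons use the SM libraries, the lower SM level enters each of them.

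At the other end, Rps9, an early-binding protein that helps organise the body of the small subunit, had 669 CPM in DM, 660 in SM and 511 in WT kidneys. Its log2 fold change was 0.37 (SE 0.32) for SM against WT and 0.39 (SE 0.32) for DM against WT, from the authors' deposited tables. Rps16 stood at 400, 424 and 345 CPM in DM, SM and WT kidneys. Rps19, the gene most often mutated in Diamond-Blackfan anaemia, stood at 173 CPM in DM, 138 in SM and 130 in WT kidneys, and its 95% interval for DM against WT ran from -0.33 to 1.15. Rps4x, the X-linked copy of S4, was at 528, 486 and 416 CPM, and Rps3a1 at 607, 687 and 572 CPM, in DM, SM and WT kidneys. Rpsa, the small-subunit protein also known as the laminin receptor, was at 807 CPM in DM, 740 in SM and 699 in WT kidneys, 0.21 (SE 0.26) higher on the log2 scale in DM than in WT.

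The 19 genes listed for Diamond-Blackfan anaemia, a failure of red cell production caused in humans by loss of one copy of a ribosomal protein gene, had median log2 fold changes of -0.03 for SM against WT, 0.08 for DM against WT and 0.12 for DM against SM. Over the 77 core subunits those medians were 0.02, 0.12 and 0.11. Large-subunit genes had medians of 0.02, 0.08 and 0.11 and small-subunit genes of 0.02, 0.12 and 0.12 in the same order of comparisons.

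The paralogs resemble canonical subunit genes, and some of them can take the place of a canonical subunit in some tissues. Rpl22l1, the paralog of Rpl22 that replaces it when Rpl22 is lost in mice, stood at 25.4 CPM in DM, 16.2 in SM and 21.5 in WT kidneys. Its log2 fold change for DM against SM in the authors' deposited table was 0.65, the highest of any member of at least 1 CPM. The 95% interval computed from the implied SE ran from -0.57 to 1.87. Rpl22 itself stood at 244 CPM in DM, 206 in SM and 196 in WT kidneys. Per kb of transcript the paralog averaged 38.2 CPM and Rpl22 104 CPM. Rps27l, which responds to p53, was at 78.4, 64.6 and 87.5 CPM in DM, SM and WT kidneys, with a log2 fold change for SM against WT of -0.44 (SE 0.35), beside -0.49 for Rps27. Per kb of transcript Rps27l averaged 156 CPM and Rps27 506 CPM. Rpl36al stood at 127, 111 and 136 CPM and Rpl7l1 at 78.7, 72.7 and 82.0 CPM in DM, SM and WT kidneys.

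The remaining rows of this kind were expressed at low levels. Rpl3l, the form of L3 used in muscle, was at 0.628 CPM in DM, 0.532 in SM and 0.832 in WT kidneys, and Rpl39l, a form used in testis, was at 0.121, 0.0571 and 0.0785 CPM. Rpl10l, the testis form of L10, stood at the lowest level the tables hold in all groups. Rps19bp1, which encodes a nucleolar protein that binds S19 and is no subunit, stood at 13.7, 10.4 and 13.3 CPM in DM, SM and WT kidneys. The row named Rps4y2, whose symbol RefSeq lists as a synonym of the transcribed pseudogene Rps4l, stood at 27.8, 30.6 and 25.8 CPM.

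A pair of core subunits had rows far below the rest of the family. Rpl30 was at 0.275 CPM in DM, 0.252 in SM and 0.348 in WT kidneys, and Rpl34 at 0.771, 0.683 and 0.528 CPM, while the other 75 core rows averaged from 7.18 to 9.98 log2 CPM. Both are obligatory parts of the ribosome. The sources used here do not give how reads that match several copies were counted, so the levels of members with pseudogene copies, and of this pair above all, are uncertain.

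Subunits that carry other names gave the same picture. Fau, a ubiquitin-like protein fused to S30, stood at 271, 228 and 253 CPM in DM, SM and WT kidneys. Gnb2l1, the scaffold RACK1 on the head of the small subunit, stood at 558, 558 and 485 CPM in DM, SM and WT kidneys. Neither passed the test, also at an unadjusted p below 0.05.

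The ribosome of the mitochondrion gave other values. Of 76 measured Mrpl and Mrps genes, 20 were lower and 0 higher in SM than in WT kidneys at the adjusted threshold in the authors' deposited table. This was 26.3% lower, against 6.09% of all rows. Of rows of at least 1 CPM, which include 75 of the 76 genes, 9.47% were lower, and of rows of 7 log2 CPM or more 22.7%. In DM against WT, 9 were lower (11.8%) and 0 higher. There, 5.92% of all rows were lower, 8.53% of rows of at least 1 CPM and 20.5% of rows of 7 log2 CPM or more. In DM against SM, 0 of the 76 genes passed, also at an unadjusted p below 0.05. The median log2 fold change was -0.51 for SM against WT and -0.40 for DM against WT, where the core cytosolic subunits had medians of 0.02 and 0.12. Of the 76 genes, 75 had a negative value for SM against WT, and the remaining one stood at the lowest level. Mrpl12, reported in human cells to bind mitochondrial RNA polymerase as well, fell to 106 CPM in SM, against 227 CPM in WT kidneys (log2 fold change -1.09, SE 0.20, adjusted p = 4.39e-06, per the authors' deposited table), and stood at 120 CPM in DM kidneys. Mrpl42 was at 76.3 CPM in DM, 83.3 in SM and 145 in WT kidneys, with log2 fold changes of -0.93 for DM against WT and -0.80 for SM against WT, both past the threshold. The difference between the families was not tested. Centred on rows of 7 log2 CPM or more, the mitochondrial counts were 8 of 76 in SM against WT and 5 in DM against WT. Rows called in all, in either direction, were then 4579 and 4458, against 4248 and 4100 without centring. The mitochondrial counts thus dropped while the counts over all rows rose, and the mitochondrial shares lay below those of all rows.

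**Figure D2:**
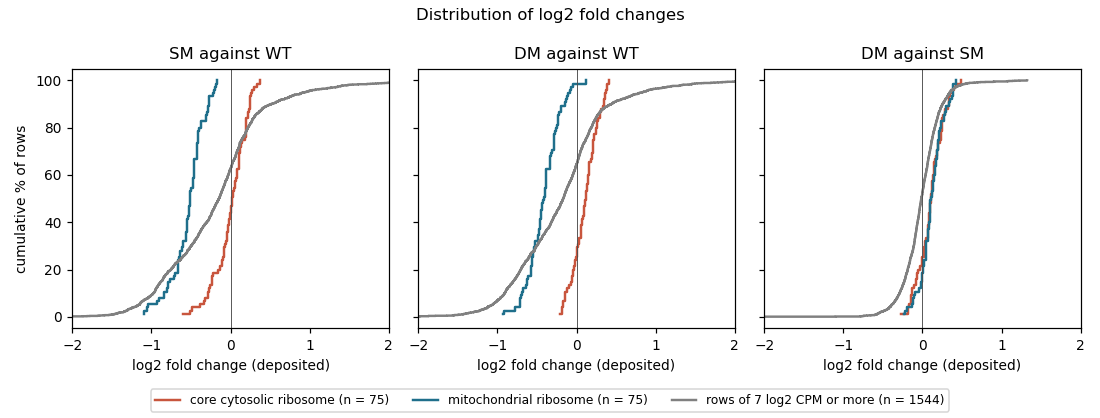
Cumulative percentage of rows (y axis) by deposited log2 fold change (x axis, cropped at -2 and 2) for 75 core cytosolic ribosomal protein genes, 75 mitochondrial ribosomal protein genes and 1544 rows of 7 log2 CPM or more. In both comparisons against WT the cytosolic curve crosses 50% close to 0 and the mitochondrial curve near -0.5 to -0.4, and in DM against SM the ribosomal curves lie together slightly above 0.

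Around the ribosome, few genes of the translation machinery passed the test. RNA polymerase I subunits and cofactors (15 measured) and initiation factors (28 measured) had 0 calls in all 3 comparisons of the authors' deposited tables in edgeR's test, and also 0 at an unadjusted p below 0.05. Of all rows, 14.0% passed the adjusted threshold in SM against WT, 13.5% in DM against WT and 0.0789% in DM against SM. The medians of both lists lay between -0.06 and 0.11 on the log2 scale. Among 46 genes of the nucleolus and of ribosome assembly, 3 rose in DM against WT (6.52%, against 7.55% of all rows) and 1 in SM against WT (2.17%, against 7.87%), so these shares were no higher than over all rows. Nop58 and Nop56, core proteins of the box C/D particles that guide methylation of ribosomal RNA, had 56.8 and 46.2 CPM in DM, 48.0 and 39.7 CPM in SM, and 36.5 and 31.2 CPM in WT kidneys. For DM against WT the authors' deposited table gives an adjusted p of 0.0154 for Nop58 and 0.0348 for Nop56, and for SM against WT 0.212 and 0.291. Rrp1b, a nucleolar relative of a yeast ribosome assembly factor, was at 20.8 CPM in DM, 20.9 in SM and 13.5 in WT kidneys and rose against WT in both mutant groups.

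The list of elongation factors and other TOP messages held 24 genes, of which 2 rose in each comparison against WT (8.33%) and 0 fell. This share was close to the 7.87% and 7.55% of all rows. It was below the 12.2% and 11.3% of rows of at least 1 CPM, which include all 24 genes. The genes that rose were Vim, the intermediate filament of mesenchymal cells, and Snhg5, the noncoding host of small nucleolar RNAs. Vim stood at 191 CPM in DM, 216 in SM and 82.0 in WT kidneys (log2 fold change for DM against WT 1.22, SE 0.25, adjusted p = 4.03e-05, per the authors' deposited table). Snhg5 stood at 13.1, 13.4 and 7.27 CPM in DM, SM and WT kidneys (0.88, SE 0.27, for SM against WT). None of the elongation factors passed. The list's medians were 0.24 for SM against WT and 0.09 for DM against WT.

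Of 17 genes that control translation with growth, 3 rose and 1 fell in SM against WT, and 2 rose and 1 fell in DM against WT. The higher calls made up 17.6% and 11.8% of the list, against 7.87% and 7.55% of all rows. The lower calls made up 5.88% in both, against 6.09% and 5.92%. Of rows of at least 1 CPM, which include all 17 genes, 12.2% and 11.3% were higher and 9.47% and 8.53% lower. With so few genes, the shares of the list rest on 1 to 3 calls. Myc, a transcription factor that promotes ribosome production, stood at 39.8 CPM in DM, 53.2 in SM and 14.8 in WT kidneys, and rose by 1.84 (SE 0.36) on the log2 scale in SM against WT (adjusted p = 9.08e-06, per the authors' deposited table). Eef2k, the kinase that inhibits elongation factor eEF2, stood at 24.5, 28.9 and 11.8 CPM in DM, SM and WT kidneys and rose in both mutant groups. Pdcd4, an inhibitor of the helicase eIF4A and a known target of miR-21, stood at 61.0 CPM in DM, 68.1 in SM and 42.6 in WT kidneys, past the threshold for SM against WT (adjusted p = 0.00531, per the authors' deposited table) and at 0.0502 for DM against WT. Mtor, the kinase that controls TOP messages, fell to 97.0 CPM in DM and 104 CPM in SM, against 160 CPM in WT kidneys. Pdcd4 and Mtor were chosen after their values were seen, to complete the count. The proteasome, which degrades surplus ribosomal proteins, had 1 of 31 subunit genes past the threshold in each comparison against WT. This was Psmd3, at 145 CPM in DM, 154 in SM and 236 in WT kidneys. The share was 3.23% lower, against 6.09% of all rows in SM against WT and 5.92% in DM against WT. Of the 31 values, 28 lay below 0 in SM against WT and 27 in DM against WT.

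**Figure D3:**
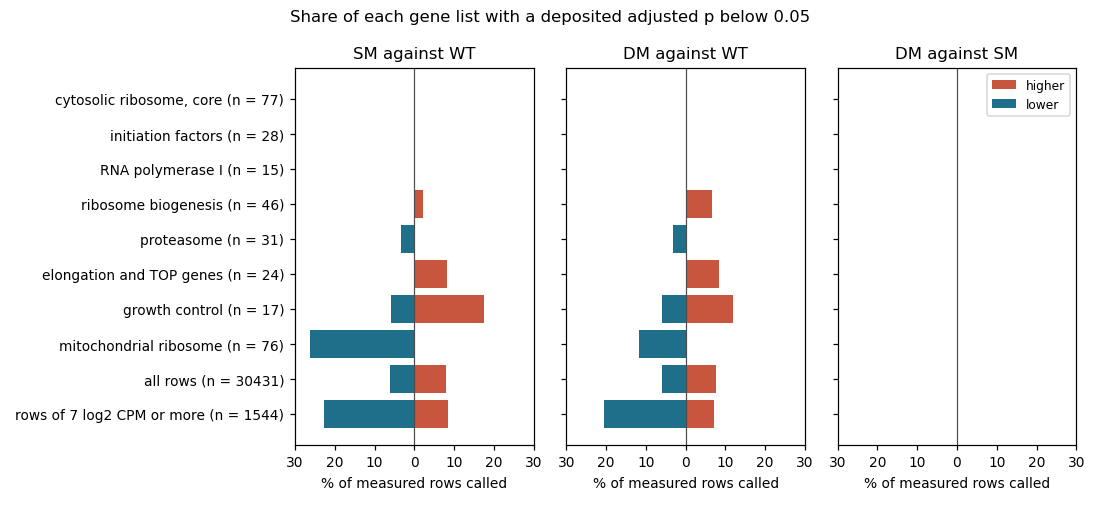
Percentage of measured rows with a deposited adjusted p below 0.05 (x axis), higher (red, to the right) or lower (blue, to the left), for 8 gene lists and for all rows and rows of 7 log2 CPM or more, with the number measured in brackets. The core cytosolic ribosome, initiation factors and RNA polymerase I have no bar in any comparison, the mitochondrial ribosome reaches 26.3% lower in SM against WT, and in DM against SM the lists have no call and the 0.0789% of all rows is too small to see.

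Within the family, short genes had lower values than long ones in both comparisons against WT. The 75 core genes of at least 1 CPM were ordered by annotated transcript length and split into classes of 25. For SM against WT the median log2 fold change was -0.09 in the short class (345 to 673 bases), 0.02 in the middle class (677 to 946 bases) and 0.12 in the long class (975 to 5130 bases), and 7, 15 and 20 genes of the 25 lay above 0. For DM against WT the medians were -0.01, 0.12 and 0.19, with 12, 20 and 24 genes above 0. For DM against SM the medians ran the other way, at 0.15, 0.10 and 0.08. Pearson's r between log2 length and log2 fold change was 0.45 for SM against WT, 0.41 for DM against WT and -0.16 for DM against SM, and Spearman's rho was 0.50, 0.43 and -0.24. These are descriptions across 75 genes that share the same libraries, and no p is given. Rps21, Rps27 and Rps29 all have transcripts under 400 bases.

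The length pattern was not confined to ribosomal protein genes. Among all rows of at least 1 CPM with an annotated length, 231 fell in the range of the short class, 472 in that of the middle class and 12799 were longer. Their median log2 fold changes were -0.44, -0.26 and 0.02 for SM against WT, -0.23, -0.16 and 0.02 for DM against WT, and 0.18, 0.11 and -0.01 for DM against SM. Short ribosomal protein genes, at -0.09 for SM against WT, thus had a median above that of short genes in general, a difference that was not tested. Whether length or fragment size in the libraries has a part in the members' values was not tested.

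**Figure D4:**
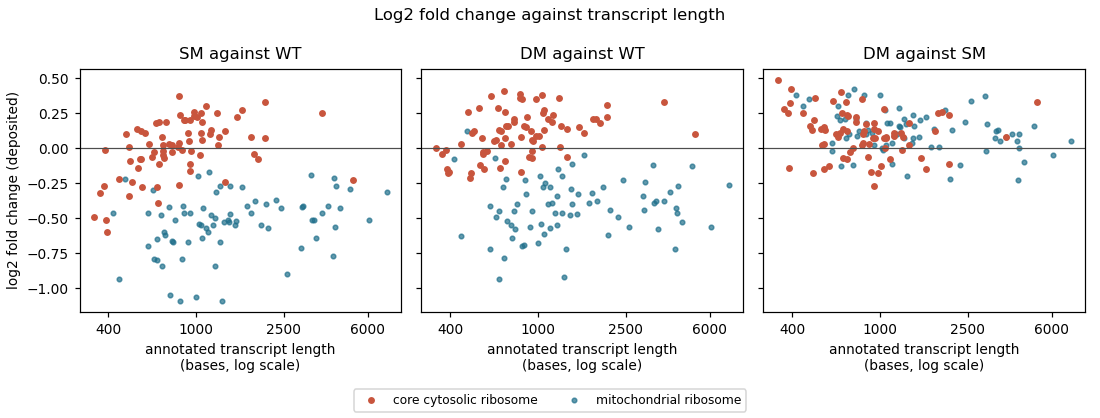
Deposited log2 fold change (y axis) against annotated transcript length in bases (x axis, log scale) for 75 core cytosolic (red) and 75 mitochondrial (blue) ribosomal protein genes. In SM against WT the 3 lowest cytosolic genes all have transcripts under 400 bases, and the mitochondrial genes lie below 0 at every length.

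Other genes show how the tissue differed between the groups. For the counts below, 7.87% of all rows were called higher and 6.09% lower in SM against WT. In DM against WT these shares were 7.55% and 5.92%. Of rows of at least 1 CPM, 12.2% were higher and 9.47% lower in SM, and 11.3% and 8.53% in DM. Pkd2, whose deletion is limited to part of the tubule cells, was at 170 CPM in DM, 180 in SM and 239 in WT kidneys (adjusted p = 0.0838 for DM against WT and 0.179 for SM against WT in the authors' deposited tables), and the row named Mir21 was at the lowest level in every group, so these rows do not check the genotypes. Kidney tissue was evident from 14 proximal tubule markers summing to 14500 CPM in DM, 12300 in SM and 31200 in WT kidneys, of which 10 fell in DM and 11 in SM. All 13 measured macrophage markers rose in SM and 12 in DM, and the list summed to 597 CPM in DM, 581 in SM and 152 in WT kidneys. Of 14 mitosis genes 10 rose in DM and 12 in SM, and they summed to 265, 275 and 93.4 CPM in DM, SM and WT kidneys. Principal cell markers of the collecting duct summed to 1250, 1390 and 899 CPM and lymphocyte markers to 23.3, 11.9 and 11.3 CPM in DM, SM and WT kidneys. Of the 8 principal cell markers, 6 rose in SM and 4 in DM, while 2 had negative log2 fold changes against WT. These were Aqp2 (-0.278 in SM, -0.055 in DM) and Aqp3 (-0.27 in SM, -0.108 in DM). Of the 14 lymphocyte markers only 4 averaged at least 1 CPM. Against WT, 5 rose in DM and 0 in SM, and 0 passed in DM against SM. Erythroid markers summed to 42.3, 60.1 and 131 CPM in DM, SM and WT kidneys, with 4 of 7 at the lowest level. Most of that gap was in Slc4a1, which intercalated cells of the kidney also express, at 24.7, 21.9 and 94.0 CPM in DM, SM and WT kidneys, while Alas2 stood at 16.9, 36.9 and 35.3 CPM. The sum leaves out the row named Beta-s, a haemoglobin symbol not on the list, which averaged 7 log2 CPM or more. Its log2 fold change against WT was -0.493 in SM and -1.057 in DM kidneys. Of 14 hepatocyte genes, summing to 276, 246 and 350 CPM in DM, SM and WT kidneys, 9 fell and 3 rose in DM, and 10 fell and 2 rose in SM. The fibrinogen genes Fgg and Fga rose, to 45.1 and 106 CPM in DM and 43.1 and 103 CPM in SM, against 6.98 and 27.8 CPM in WT kidneys. Alb, which encodes albumin, stood at 1.03 CPM in DM, 0.328 in SM and 132 in WT kidneys. The part of these shifts in cell types in the values of the ribosomal protein genes was not tested.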

How the data were processed

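Whole-kidney RNA of 10 mice (3 DM, 3 SM, 4 WT) was, per the labels' protocols, extracted with a miRNeasy kit and made into stranded total RNA libraries. Tools in the submitters' processing notes are edgeR 3.2.4, Subread 1.4.6, featureCounts, Cufflinks, TopHat2 2.0.12 and bcl2fastq 1.8.4, with build mm10 and no roles stated. The authors deposited 3 comparison tables. Per the file headers, each row holds the log2 fold change, the average log2 CPM (library-scaled count), a likelihood ratio score, a p-value and an adjusted p-value. Checked on the files, p-values equal chi-square tails of the deposited scores, the adjusted value is Benjamini-Hochberg over all 30431 rows, and the averages are identical between tables, as in a single fit of all libraries. With no library totals in the sources used here, depth is unknown.

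From these, Python 3.11.15, pandas 2.3.3 and scipy 1.17.1 gave the SE (absolute log2 fold change over the root of the score), 95% intervals (1.96 SE) and group levels whose mean over the 10 libraries is the deposited average. Calls are the authors' own, at an adjusted p below 0.05, and no test of gene lists was run. Members and lists were chosen with earlier results of these data known. Genes eligible for naming were, per comparison, those that passed, the 3 highest and 3 lowest by fold change at 1 CPM or more, the 3 with the highest averages, and all paralog, stalk, 5S particle and differently named subunit genes, with the 2 smallest p-values of each other list. The other genes that passed in the translation lists, and any further member named, were chosen after their values were seen. Positions and lengths (median of principal coding transcripts) came from GENCODE mouse release M21 on GRCm38, and start windows from RefSeq on GRCm38.p6. The planned comparison of paralog protein sequences was not run. Alternatives were a stricter threshold, adjustment over fewer rows, core subunits only, and recentring. A few gene results are not reported here.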

Additional observations from a re-analysis of the deposited data

How the results depend on the processing

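The count of 0 ribosomal protein genes past the threshold held in each comparison at an adjusted p below 0.01, with adjustment over rows of at least 1 CPM or over named rows, for core subunits only, and after centring on the median of rows of at least 1 CPM. It also held after centring on rows of 7 log2 CPM or more, an alternative chosen after seeing the data, which shifts values by 0.15 for SM against WT, 0.17 for DM against WT and 0.02 for DM against SM. The smallest adjusted p of any member under these settings was 0.132, for DM against WT in that last setting. The members' median log2 fold change ran from 0.01 to 0.15 for SM against WT, from 0.11 to 0.28 for DM against WT and from 0.11 to 0.13 for DM against SM, the upper ends from that setting. Centring on rows of 7 log2 CPM or more changed the sign of 18 of 86 members for SM against WT, 18 for DM against WT and 2 for DM against SM, and centring at 1 CPM changed 1, 0 and 0. Single named genes were recomputed at an adjusted p below 0.01, with adjustment over rows of at least 1 CPM and with centring at 1 CPM, and not with centring on rows of 7 log2 CPM or more. Over those settings all 276 values of the 32 named members kept direction and side. Of 807 values of named genes of any list, 788 did, 10 no longer passed, 8 passed newly, and 1 changed sign, Gnb2l1 for DM against SM (-0.0 after centring at 1 CPM). Rows called in all were 13 for DM against SM at 1 CPM or more, against 24. Mitochondrial ribosomal protein genes called lower numbered 25 for SM against WT and 12 for DM against WT when adjusted over rows of at least 1 CPM. In that setting 3635 and 3328 of 15135 rows were called in either direction. Leaving out single animals was not possible, as the tables hold no value per library. No paired analysis was possible because the tables hold comparisons only and animal numbers are not shared between groups. Unknown depth and 3 or 4 animals per group limit the intervals, most of which exclude a 2-fold difference but not a log2 difference of 0.5.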
